A study of Mus musculus with 48 samples.

Results

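The 39 genes described here are type I interferon-stimulated genes, chosen by symbol among the 51789 gene IDs of the table, and all 39 had enough reads to be tested. Interferons alpha and beta are released by cells that sense viral or misplaced nucleic acid. They bind the receptor chains IFNAR1 and IFNAR2, whose kinases JAK1 and TYK2 phosphorylate STAT2. With IRF9 it forms part of a complex that binds the interferon-stimulated response element (ISRE) in the promoters of target genes. Macrophages carry this program at a basal level and raise it after infection. Interferon gamma acts through another receptor, and many of these genes also answer to it, so the name of the group does not tell which interferon acted.

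The genes were followed in macrophages of 8 populations exposed for 4 h to 10 µM AP-3-84, a compound the labels give by code only, or to its DMSO vehicle, with 3 libraries in each of the 16 groups. All mice carry the strain label C57BL/6, and the labels used here give neither age nor sex. The ascites population was F4/80+ cells taken with magnetic beads from the peritoneal wash of mice bearing ID8, a mouse ovarian tumour line, 45 days after its injection. Its genotype field reads B6(Cg)-Tyrc-2J/J, so tumour, strain and time cannot be told apart in its comparison with other cells. The thio population was F4/80+ peritoneal cells of wild-type C57BL/6 mice, collected 4 days after 1 ml of 3% thioglycollate, an irritant. Between ascites and thio, this irritant cannot be told apart from tumour, strain and time either. The remaining populations came from bone marrow kept in M-CSF (10 ng/mL) over 6 days, from wild-type (WT) or p53 knockout (KO) mice. The genotype field calls all of these wild-type, so WT and KO follow the titles. M0 cells received nothing more. M1 cells had a further 24 h in LPS (100 ng/mL) plus IFN-γ (50 ng/mL), and M2 cells in IL-4 plus IL-13 (10 ng/mL each). No group received a type I interferon. The series asks, by its design, how the compound acts on macrophages of different origin, polarization and p53 status.

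Ascites and thio libraries held 15532373 to 19417581 counts each, and marrow-derived libraries 3081707 to 4645148, so fold changes are known less closely in the latter. Trp53 tags, which may lie outside the deleted part and then check nothing, were at 2.70 to 9.11 CPM in KO and 4.79 to 13.2 CPM in WT libraries. The p53 target Cdkn1a was at 34.1 to 291.8 CPM in KO and 555.0 to 1119 CPM in WT libraries, without overlap. CPM is the read count of a gene relative to the TMM-scaled total of its library. The 9 macrophage markers, Adgre1 and Csf1r among them, were detected in every group, and their summed level was lowest in KO_M2 vehicle library 3, at 6199 CPM.

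The 250 bases before the RefSeq start of 5 members (GRCm38.p6) are shown because these genes carry the response element read by the complex that holds STAT2 and IRF9. The ISRE core was searched as GAAA, any 2 bases and GAAA again, on both strands, and capitals mark each match. All 5 are written 5′ to 3′ on the strand of the gene.
Isg15, chr4:156200819-156201068, minus strand: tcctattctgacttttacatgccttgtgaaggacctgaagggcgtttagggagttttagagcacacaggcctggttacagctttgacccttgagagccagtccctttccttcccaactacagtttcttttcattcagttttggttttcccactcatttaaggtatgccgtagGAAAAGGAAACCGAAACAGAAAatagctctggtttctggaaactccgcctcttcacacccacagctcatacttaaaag
Ifit1, chr19:34640639-34640888, plus strand: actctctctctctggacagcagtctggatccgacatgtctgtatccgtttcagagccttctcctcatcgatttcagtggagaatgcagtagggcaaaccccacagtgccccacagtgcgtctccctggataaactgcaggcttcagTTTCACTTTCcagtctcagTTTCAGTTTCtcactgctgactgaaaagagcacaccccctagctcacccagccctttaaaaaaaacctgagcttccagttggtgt
Ifit3, chr19:34583279-34583528, plus strand: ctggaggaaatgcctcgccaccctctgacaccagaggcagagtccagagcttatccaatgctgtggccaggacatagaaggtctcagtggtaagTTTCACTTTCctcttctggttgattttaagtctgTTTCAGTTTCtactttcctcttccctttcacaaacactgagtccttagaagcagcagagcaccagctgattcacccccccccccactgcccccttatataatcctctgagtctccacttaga
Ifit3b, chr19:34607707-34607956, plus strand: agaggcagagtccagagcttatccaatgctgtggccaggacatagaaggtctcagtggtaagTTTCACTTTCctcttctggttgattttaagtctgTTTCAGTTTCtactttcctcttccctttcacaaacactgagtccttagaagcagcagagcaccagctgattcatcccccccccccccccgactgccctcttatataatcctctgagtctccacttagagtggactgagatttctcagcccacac
Rsad2, chr12:26456453-26456702, minus strand: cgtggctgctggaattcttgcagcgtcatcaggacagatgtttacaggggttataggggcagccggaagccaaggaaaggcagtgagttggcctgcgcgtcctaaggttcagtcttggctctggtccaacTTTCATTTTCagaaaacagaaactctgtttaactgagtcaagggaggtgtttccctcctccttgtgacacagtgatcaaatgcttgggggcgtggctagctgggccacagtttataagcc
Isg15 had 3 overlapping matches, starting 78, 72 and 66 bases before its start site. Ifit1, Ifit3 and Ifit3b had 2 each, all on the opposite strand, and Rsad2 had 1. Of the 28 members with a window in the table (250 bases before to 50 after the start), 15 held the core (53.6%), against 1079 of all 27025 genes (3.99%). The interferon gamma element GAS, searched as TTCNNNGAA on both strands, was in 6 of 28 (21.4%) against 9.55% of all genes, and in none of the windows of the 5 genes printed. A match is only a run of letters, and Irf7, Irf9, Oasl1, Oasl2 and Xaf1 held no ISRE core in this window.

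The members were low in thio and high in ascites and M1 cells. The median over the 39 genes was between 3.84 and 4.05 log2 CPM in thio vehicle libraries and between 7.38 and 7.53 in ascites vehicle libraries, in 1 fit. In the fit of bone marrow-derived cells it was 6.76 to 6.81 in WT_M1, 6.75 to 7.202 in KO_M1, 4.97 to 5.29 in WT_M0 and 4.76 to 4.96 in KO_M0 vehicle libraries. Among vehicle groups the M2 libraries spread most, from 3.98 to 5.56 in WT_M2 and from 4.71 to 6.62 in KO_M2 vehicle libraries. M1 libraries therefore lay above those of M0 and M2 of the same genotype without overlap, whereas M0 and M2 overlapped in each genotype. The peritoneal and bone marrow-derived libraries were scaled apart and are not compared.

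**Figure D1:**
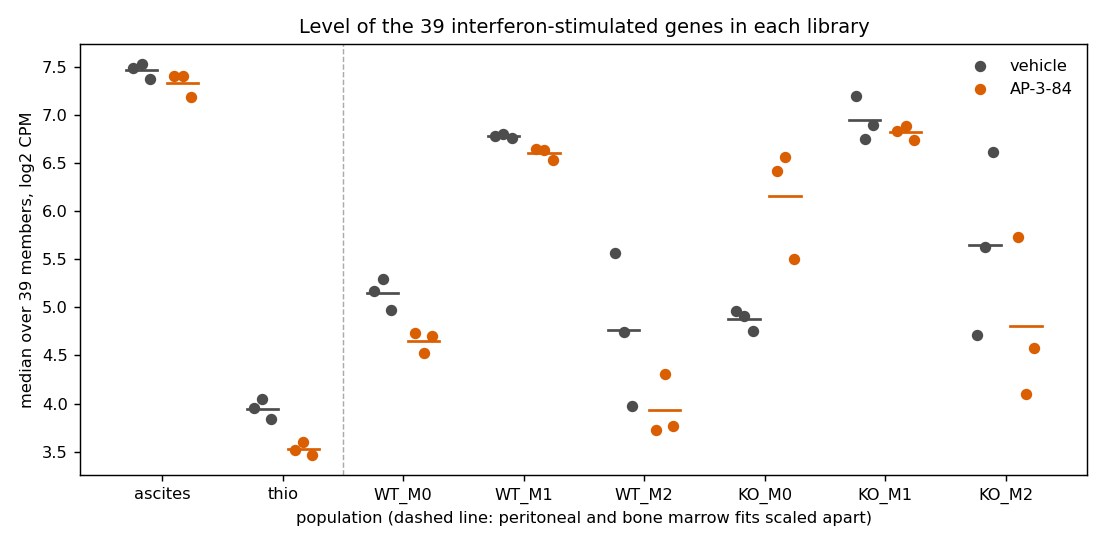
Median log2 CPM of the 39 members in each library (y axis) by population (x axis), with 3 points per group, a line at their mean, vehicle in grey and AP-3-84 in orange. Vehicle medians lie near 4 in thio and above 7.3 in ascites, the 2 vehicle groups of M2 spread most among vehicle groups, and the treated libraries lie clear above vehicle in KO_M0, at 5.50 to 6.56.

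In vehicle, all 39 members rose in ascites over thio macrophages at an adjusted p under 0.05, beside 20.3% of all 16955 genes tested that rose. No ascites library overlapped a thio library for any of the 39. The median difference was 4.07 on the log2 scale, against 0.046 over all genes tested. In these bulk samples, more cells of a kind and more RNA per cell cannot be told apart. The labels do not say that the libraries of a group come from separate mice or cultures, so here and below p-values measure only the spread between these samples, which may be technical.

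Among the transcription factors, Irf7, which amplifies the interferon response, was at 1089, 1087 and 1173 CPM in ascites and at 26.3, 18.04 and 19.9 CPM in thio vehicle libraries. The difference was 5.71 (SE 0.12) on the log2 scale. Irf9, the DNA-binding partner of STAT2, differed least of all members, at 103 to 119 against 42.3 to 45.1 CPM, a log2 difference of 1.37 (SE 0.10, edgeR adjusted p = 4.57e-09). Stat2 was at 232 to 259 against 56.4 to 65.8 CPM. The sensors, which detect foreign RNA or DNA, all rose, from 2.33 for Ifih1 to 4.82 for Ifi205 in log2 difference. Rtp4, Oasl1 and Oasl2 had the lowest p-values of the 39. Oasl1 was at 163 to 176 against 4.53 to 5.04 CPM, and Oasl2 at 323 to 342 against 17.8 to 22.0. Rtp4, a chaperone of membrane receptors, was at 256 to 275 against 8.44 to 9.70 CPM (log2 difference 4.87, SE 0.08, edgeR adjusted p = 1.01e-16).

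The IFIT family, which binds viral RNA that lacks host cap marks, had the largest median difference of the roles, 7.35. Ifit1 was at 114 to 122 CPM in ascites and 0.972 to 2.11 in thio, and Ifit3 at 470 to 512 against 1.70 to 5.87. Ifit3b had only 5 counts in all 3 thio vehicle libraries together, so its log2 difference of 8.72 (SE 0.33) rests on few reads. Mx1, a dynamin-like antiviral GTPase, was at 67.0 to 73.1 against 0.958 to 0.976 CPM. Rsad2 (viperin), which makes a chain-terminating nucleotide, was at 502 to 581 against 29.4 to 35.1 CPM. Isg15, a ubiquitin-like modifier, was at 201 to 264 against 14.7 to 18.2 CPM, and Usp18, the protease that removes it and dampens the receptor, at 102 to 107 against 6.13 to 7.38. Bst2 (tetherin), which holds budding virus at the membrane, was at 123 to 135 against 8.502 to 11.4 CPM. Ifitm3, which blocks viral fusion in endosomes, was at 2781 to 3200 against 150 to 163 CPM. Every one of these pairs of groups was wide apart relative to the spread within it, while Parp9, Parp14 and Dtx3l, ADP-ribosylation and ubiquitin enzymes, differed less, with a median of 2.06.

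Genes around the pathway were also tested. Of 57 other interferon-stimulated genes, 57 rose in ascites, and of 17 tested genes that prefer interferon gamma, 17 rose, with a median of 4.11. The transcription factor gene Irf1 rose by 1.68 (SE 0.07) on the log2 scale. The receptor genes moved little: Ifnar1 by 0.32 (SE 0.09) and Ifnar2 by 0.31 (SE 0.06), with Tyk2 at 0.46 (SE 0.09) and Jak1 lower, at -0.30 (SE 0.06). The ligands were at or near 0. Ifnb1 had 3 counts over all 12 peritoneal libraries and 6 over the 36 others, no interferon alpha gene listed had over 2 counts in any library, and 0 of the 15 ligand genes could be tested. Summed markers of ovarian epithelium, mesothelium or ID8 cells ran from 210 to 247 CPM in ascites and from 2.55 to 4.66 CPM in thio vehicle libraries, and all 8 of them had reads in ascites while Epcam, Msln and Cldn3 were at 0 in thio. Their part in the difference was not tested.

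Polarization with LPS and IFN-γ moved most members in both genotypes. In WT_M1 against WT_M0, 28 of 39 rose and 0 fell, beside 8.01% of all 11779 genes that rose, with a median of 1.72. In KO_M1 against KO_M0, 34 rose and 0 fell, beside 22.8% of all genes, with a median of 2.03. Zbp1, a sensor of Z-form nucleic acid, Usp18 and the DNA sensor Ifi204 had the lowest p in WT, and Usp18, Zbp1 and Phf11b in KO. Zbp1 was at 163, 184 and 182 CPM in WT_M1 against 12.3 to 15.5 in WT_M0 (log2 difference 3.65, SE 0.45), and at 95.9 to 133 in KO_M1 against 9.74 to 11.0 in KO_M0 (3.45, SE 0.46). Ifi204 was at 142 to 152 CPM in WT_M1 against 32.2 to 58.5 in WT_M0 (1.61, SE 0.28), and Phf11b at 157 to 396 in KO_M1 against 24.6 to 26.0 in KO_M0 (3.35, SE 0.46). None of these groups overlapped. Usp18 was at 68.6 to 84.8 CPM in WT_M1 and 8.95 to 16.7 in WT_M0 (log2 difference 2.46, SE 0.39). It was at 71.4 to 175 CPM in KO_M1 and 4.72 to 7.57 in KO_M0 (4.28, SE 0.44). Irf7 went to 619 to 687 CPM in WT_M1 from 37.2 to 43.5 in WT_M0, without overlap.

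Not every member was called, although estimates were positive for 38 of 39 in WT and for all 39 in KO. Rsad2 was at 186 to 242 CPM in WT_M1 against 85.6 to 131 in WT_M0, without overlap, but was not called (0.87, SE 0.77). In KO cells it was at 597 to 1029 against 48.4 to 73.6 CPM, a rise of 3.78 (SE 0.85). Ifit2 was at 5.03 to 6.86 CPM in WT_M1 and 5.38 to 13.4 in WT_M0, an estimate of -0.65 (SE 0.66) that was not called. Irf9, Oas2, Parp9, Dtx3l and Ifi27l2a were the 5 not called in KO, though Oas2, Parp9 and Dtx3l lay higher in KO_M1 without overlap. Ifitm3 was at 4191 to 5289 CPM in WT_M1 against 1172 to 1208 in WT_M0, and Isg15 at 246 to 272 against 33.5 to 69.5, both called. Without WT_M0 vehicle library 3, the count in WT fell to 15. Summed macrophage markers were 16400 to 25820 CPM in KO_M1 against 32830 to 39450 in KO_M0, and neutrophil markers 987 to 2502 against 578 to 730, both without overlap. In WT they were 44150 to 47100 against 30630 to 38980 CPM and 440 to 566 against 269 to 498. Their part was not tested. Because M1 medium held IFN-γ and LPS together, effects of both agents cannot be told apart.

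M2 polarization gave a mixed picture. In WT_M2 against WT_M0, 3 of 39 were called, beside 23.4% of all genes: Usp18 rose (1.93, SE 0.39), at 39.9 to 67.9 against 8.95 to 16.7 CPM, whereas Ifit3b (-2.64, SE 0.69), at 0.633 to 2.50 against 6.39 to 10.1 CPM, and Ifitm3 (-1.47, SE 0.53) fell. Ifitm3 was at 209, 241 and 842 CPM in WT_M2 and at 1172 to 1208 in WT_M0. Without WT_M2 vehicle library 1, whose members' median was the highest of the group, 11 were called. In KO_M2 against KO_M0, 16 rose and Irf9 fell, beside 20.1% of all genes that rose and 18% that fell, and Usp18 again had the lowest p (3.64, SE 0.44), at 52.0 to 101 against 4.72 to 7.57 CPM. Zbp1 followed at 18.8 to 77.6 against 9.74 to 11.0 CPM (2.09, SE 0.46), then Phf11b at 40.6 to 144 against 24.6 to 26.0 (1.81, SE 0.45), each without overlap. The count was 6 without KO_M2 vehicle library 3, 7, 9 and 11 without KO_M0 vehicle libraries 2, 3 and 1, and 21 without KO_M2 vehicle library 1.

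Genotype comparisons in vehicle called few members, but the number depended on the fit. With only the libraries compared, edgeR called 12 in M0, 7 in M1 and 0 in M2, and with no filter on low counts 12, 9 and 25. The share of all genes called in these runs is not given. In KO_M0 against WT_M0, 2 of 39 were called beside 33.2% of all genes: Ifi27l2a was higher in KO (1.16, SE 0.44, edgeR adjusted p = 0.0427), at 162 to 175 against 33.9 to 100.4 CPM, and Usp18 lower (-1.18, SE 0.45, edgeR adjusted p = 0.0455). Leaving out WT_M0 vehicle library 1 or 2, or any KO_M0 vehicle library, gave 0 calls. In KO_M1 against WT_M1, 1 member, Xaf1, a proapoptotic factor, was called and higher in KO, beside 11.6% of all genes (5.93% higher). In KO_M2 against WT_M2, 2 were called, both higher in KO, beside 3.56% of all genes (2.34% lower), Xaf1 and Ifi204, the latter at 57.0 to 151 against 31.0 to 53.4 CPM (1.14, SE 0.28). Xaf1 was at 123 to 177 CPM in KO_M1 against 58.7 to 64.1 in WT_M1 (1.37, SE 0.33), and at 34.8 to 124 in KO_M2 against 8.23 to 16.4 in WT_M2 (2.47, SE 0.37), with no overlap in either. In M0 it was at 25.1 to 45.3 CPM in KO and 20.4 to 26.3 in WT, which overlap (0.42, SE 0.35). In M2, 38 of 39 members had a positive estimate with a median of 1.04, which was 0.29 without KO_M2 vehicle library 3 and 1.74 without WT_M2 vehicle library 1. Summed macrophage markers were lower in KO than WT vehicle without overlap, at 6199 to 18730 against 25150 to 31130 CPM in M2 and 16400 to 25820 against 44150 to 47100 in M1. Neutrophil markers were 987 to 2502 in KO_M1 against 440 to 566 in WT_M1. Their part was not tested. The number called in M2 was 1 without WT_M2 vehicle library 2 or 3 or KO_M2 vehicle library 3, 8 without WT_M2 vehicle library 1 and 11 without KO_M2 vehicle library 1.

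**Figure D2:**
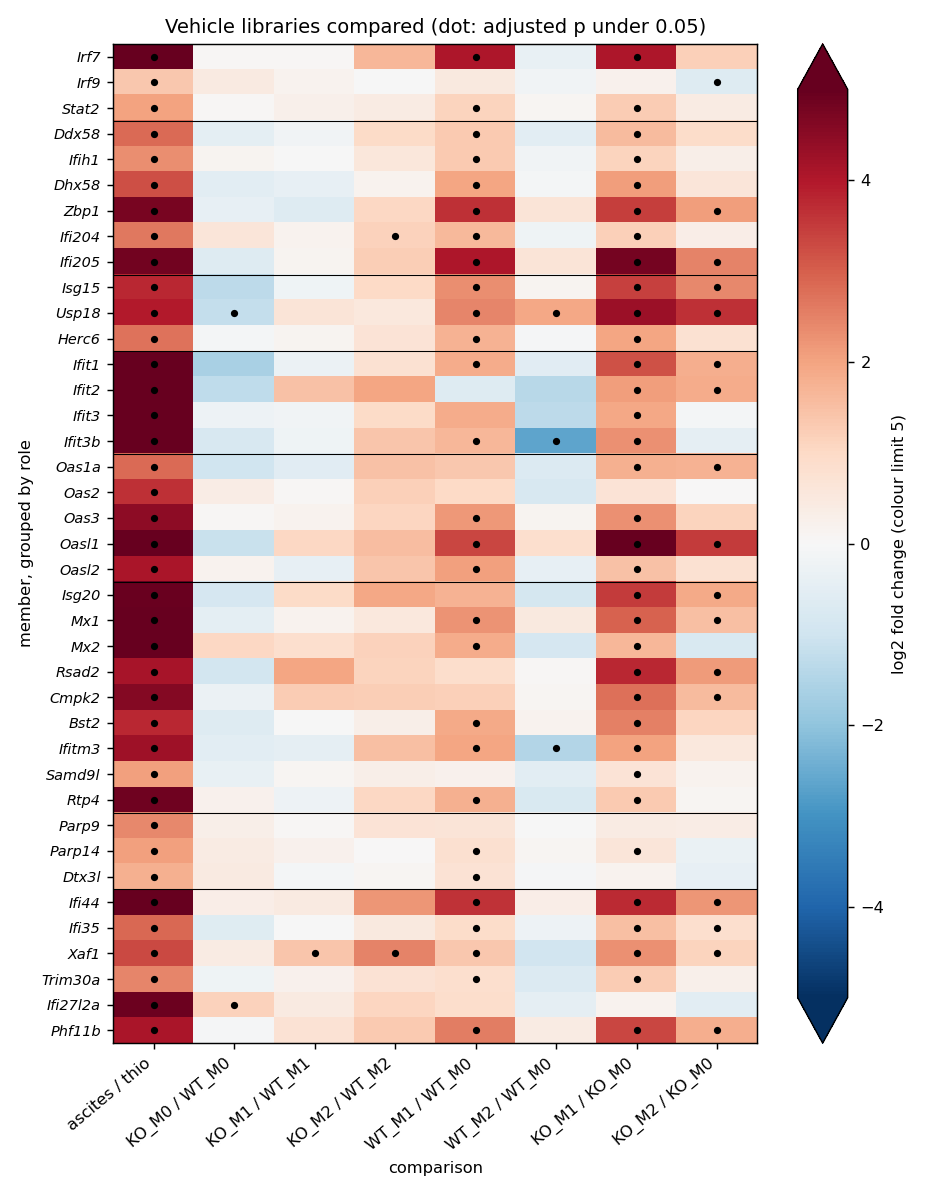
Log2 fold change (colour, limits at 5) of the 39 members (rows, grouped by role) in 8 comparisons of vehicle groups (columns, first group over second), with a dot where the edgeR adjusted p is under 0.05. The ascites column is called for all 39, the M1 columns for 28 and 34, and the genotype columns for 2, 1 and 2.

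AP-3-84 raised the members in KO_M0 cells. There, 23 of 39 rose and 0 fell, beside 12.1% of all 11779 genes that rose and 8.57% that fell, and all 39 estimates were positive with a median of 1.43 against -0.029 over all genes. All 3 treated libraries were above all 3 vehicle libraries for 30 members, beside 15.4% of all genes. All 4 IFIT genes and all 6 of the genes listed without a shared family (Ifi44, Ifi35, Xaf1, Trim30a, Ifi27l2a and Phf11b) rose, as did 4 of 6 sensors, 1 of 5 OAS genes and 0 of the 3 PARP and DTX3L genes. The treated libraries were unequal: their members' medians were 6.42, 6.56 and 5.50 log2 CPM against 4.76 to 4.96 in vehicle.

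Usp18 was at 72.5, 82.6 and 25.9 CPM in treated and at 4.72, 6.16 and 7.57 in vehicle KO_M0 libraries, a rise of 3.29 (SE 0.43, edgeR adjusted p = 6.6e-06). Mx1 was at 32.1, 48.6 and 14.6 against 3.14 to 4.33 CPM, a rise of 3.08 (SE 0.47). Ifi35, which binds other interferon-induced proteins, was at 79.1, 78.4 and 44.7 against 18.2 to 25.2 CPM (1.56, SE 0.25). In each of these genes the third treated library was the lowest of the treated and still above every vehicle library. Isg15 was at 149, 185 and 69.1 against 14.6 to 27.2 CPM (2.67, SE 0.67), and Irf7 at 198, 344 and 101 against 32.2 to 51.1 (2.37, SE 0.68). Ifit1 was at 135, 117 and 43.1 against 10.6 to 25.4 CPM (2.49, SE 0.69), and Ifit3 at 181, 140 and 49.5 against 27.6 to 36.6 (1.94, SE 0.69). Bst2 was at 59.6, 95.7 and 41.8 against 22.8 to 30.2 CPM (1.31, SE 0.45), with Stat2 the one of this set that overlapped, at 83.6, 80.9 and 39.97 against 30.8 to 40.8 (0.98, SE 0.31). Rsad2 at 291, 394 and 137 against 48.4 to 73.6 CPM (2.19, SE 0.80, edgeR adjusted p = 0.0538) and Ifitm3 at 2808, 2657 and 1269 against 737 to 886 (1.43, SE 0.53, edgeR adjusted p = 0.0549) missed the threshold although their groups did not overlap.

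The number called in KO_M0 was 11 without treated library 2, 15 without treated library 1, 13 and 14 without vehicle libraries 3 and 2, and 30 without treated library 3. The members' median stayed between 1.29 and 1.71. Of the members, 10 (Dhx58, Ifi35, Ifih1, Ifit3b, Isg15, Mx1, Phf11b, Usp18, Xaf1 and Zbp1) were called under every alternative run.

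Other genes rose in the same libraries. Of 57 other interferon-stimulated genes, 31 rose, led by Tor3a (1.303, SE 0.18) and Cd274 (2.21, SE 0.36). The receptor gene Ifnar2 (-0.76, SE 0.14) and Jak1 (-0.37, SE 0.13) fell. Estimates for Ifnar1 (-0.42, SE 0.26), Tyk2 (-0.41, SE 0.23) and Irf1 (-0.38, SE 0.26) were not called. Ifnb1 had 1 count in the 3 treated libraries. Of 24 NF-kB and LPS-response genes, 11 rose with a median of 2.21. The scavenger receptor Marco was at 2896, 2067 and 472.8 against 14.3 to 17.6 CPM, Tnf at 266, 144 and 66.5 against 13.3 to 21.8, and Acod1 at 147, 140 and 46.1 against 5.54 to 8.38. The third treated library was the lowest for these genes too. Of 12 heat shock genes, 8 rose. The summed macrophage markers were 39280, 18210 and 29620 CPM in treated and 32830 to 39450 in vehicle libraries, and the neutrophil markers 301 to 484 against 578 to 730 CPM. Markers of plasmacytoid dendritic cells, known as strong makers of type I interferon, summed to 436 to 605 CPM in treated and 746 to 834 in vehicle libraries, without overlap. Klk1 was at 0 in both groups and Ccr9 in vehicle, while Siglech had reads in both. In WT_M0 vehicle the list summed to 318 to 321 CPM with its genes Siglech and Klk1 at 0. A sum of this list therefore does not by itself show that such cells were present, and whether KO_M0 libraries held them was not tested. Bst2, a member, is 1 of the 7 genes of that list. The part of any of these in the members' rise was not tested.

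**Figure D3:**
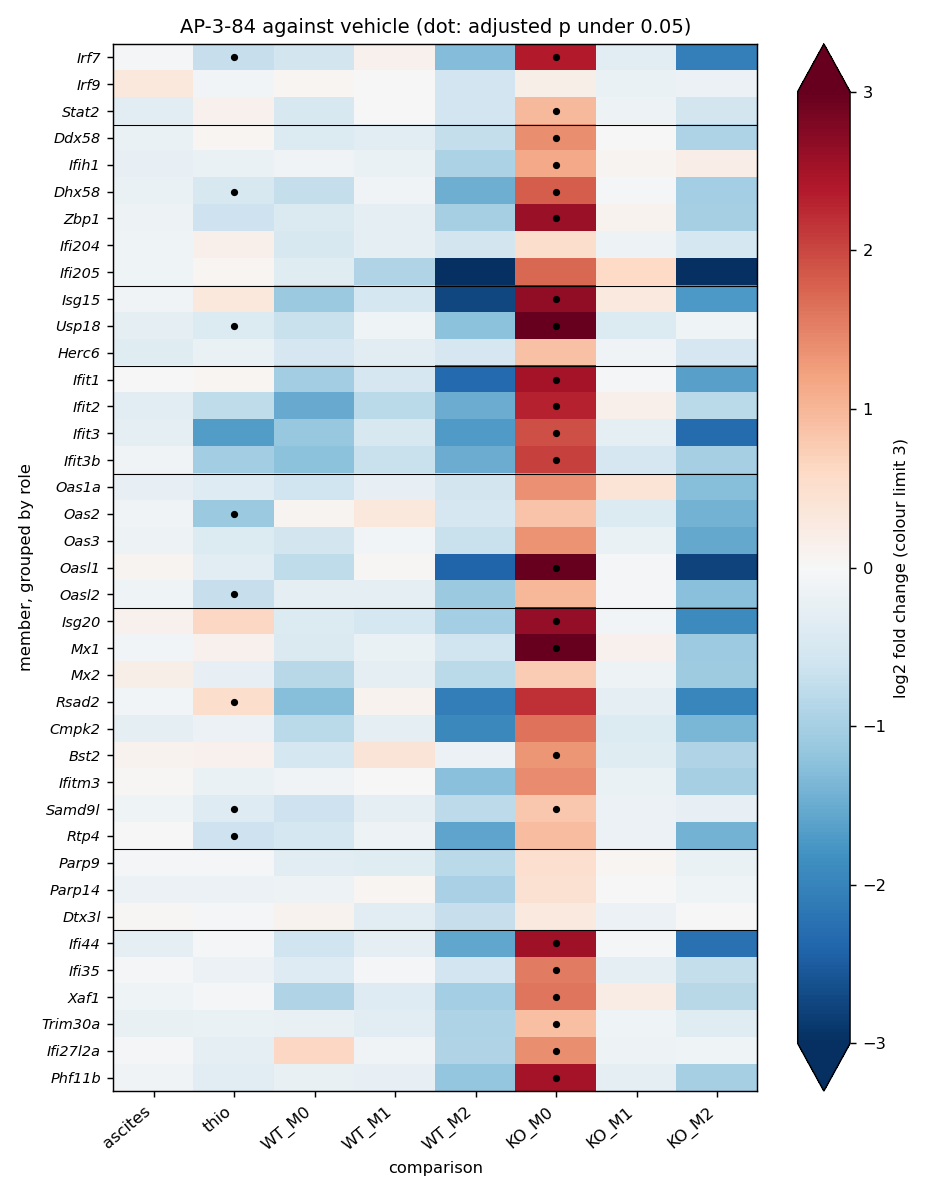
Log2 fold change of AP-3-84 against vehicle (colour, limits at 3) for the 39 members (rows, grouped by role) in the 8 populations (columns), with a dot where the edgeR adjusted p is under 0.05. The KO_M0 column is positive throughout with 23 dots, thio has 8, and the other columns have none.

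The response in KO_M0 differed from that in WT_M0. The difference of the 2 responses was called for 23 of 39 members, all higher in KO_M0, beside 10% of all genes in that direction and 6.99% in the other, with a median of 1.94. Usp18 led (3.95, SE 0.61, edgeR adjusted p = 0.000103), followed by Ifi35 (1.94, SE 0.36) and Mx1 (3.51, SE 0.69). In WT_M0 itself 0 members were called, beside 0.144% of all genes, and DESeq2 called 0. By unadjusted p 4 of 39 were under 0.05, near the rate over all genes, 1107 of 11779. The main fit took each gene's spread from all bone marrow-derived libraries, uneven ones among them, so smaller changes may be missed. Fits of only the libraries compared, or with no filter on low counts, called some members in WT_M0, as given below. In WT_M0 35 of 39 estimates were negative with a median of -0.51. Isg15 was at 21.2, 20.4 and 30.1 CPM in treated and 52.3, 69.5 and 33.5 in vehicle WT_M0 libraries (-1.11, SE 0.65). Rsad2 was at 42.5, 30.1 and 68.4 against 131, 127 and 85.6 CPM (-1.28, SE 0.79), and Ifit1 at 26.0, 22.5 and 29.6 against 56.5, 64.8 and 38.9 (-1.04, SE 0.66). Those 3 did not overlap, as 16 members did not in the lower direction, beside 7.62% of all genes. The number of differing responses was 13 without KO_M0 treated library 1 or 2, 14 without WT_M0 vehicle library 2, WT_M0 treated library 2 or KO_M0 vehicle library 3, and 15 without KO_M0 vehicle library 2. The vehicle groups did not start level: the members' medians were 4.97 to 5.29 log2 CPM in WT_M0 and 4.76 to 4.96 in KO_M0. Without overlap were 17 of 39 members, 7 higher and 10 lower in KO_M0, beside 24.8% and 22.9% of all genes. Both directions together, this was no more frequent among members than among all genes. Isg15, at 14.6 to 27.2 against 33.5 to 69.5 CPM, and Ifit1, at 10.6 to 25.4 against 38.9 to 64.8, were among those lower in KO_M0 vehicle. In the same libraries 15 of 24 NF-kB and LPS-response genes were lower in KO_M0 than WT_M0 vehicle.

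**Figure D4:**
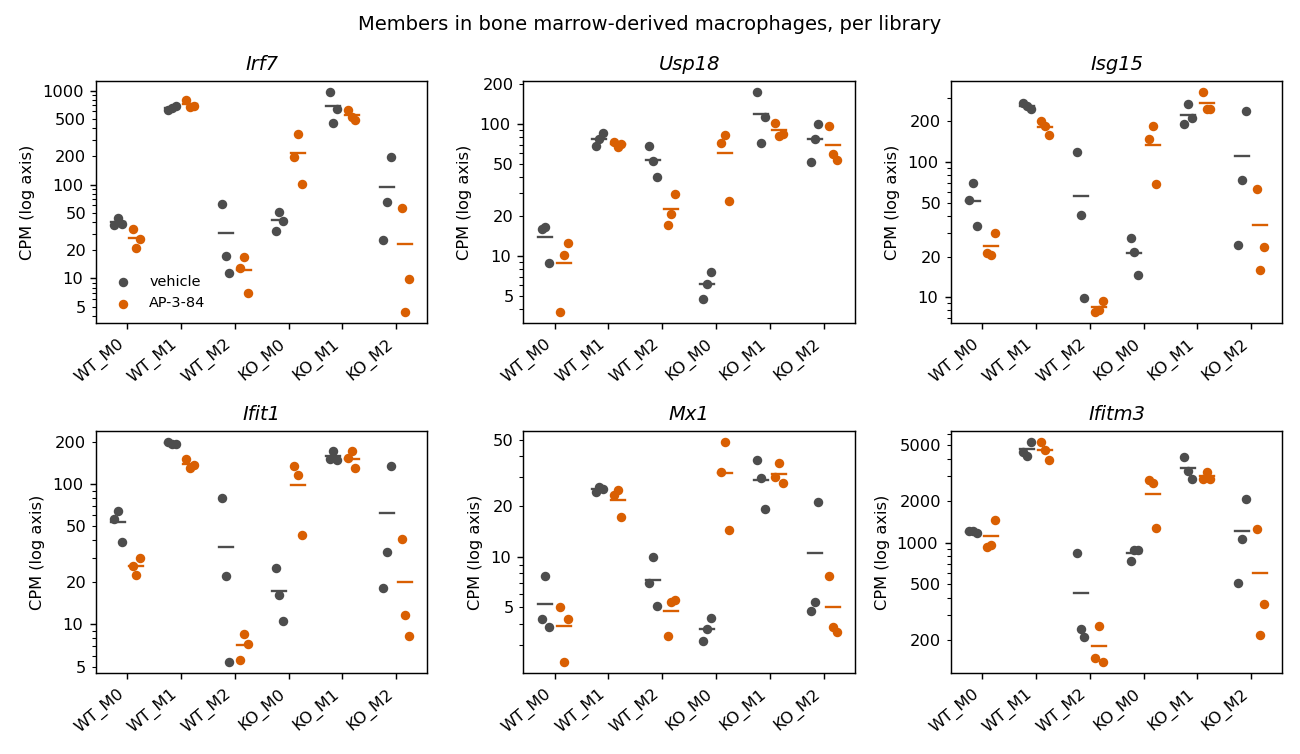
CPM on a log axis of 6 members in each bone marrow-derived library by population (x axis), 3 points per group with a line at the mean, vehicle in grey and AP-3-84 in orange. In KO_M0 the treated libraries lie above the vehicle ones for each of the 6, with Usp18 at 25.9 to 82.6 against 4.72 to 7.57 CPM, and in M2 the vehicle points of Isg15 spread from 9.82 to 118 CPM in WT and 24.4 to 237 in KO.

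In thio macrophages the compound lowered some members and raised 1. Of 39, 8 were called beside 4.32% of all genes: 7 fell, beside 1.82% of all genes that fell, and Rsad2 rose, beside 2.51% that rose. Oasl2, of the oligoadenylate synthetase family, was at 11.4, 12.0 and 13.4 CPM in treated and 22.0, 19.2 and 17.8 in vehicle libraries (-0.68, SE 0.09, edgeR adjusted p = 0.000119). Rtp4 was at 5.49, 5.62 and 6.63 against 9.70, 8.44 and 9.11 CPM (-0.62, SE 0.09, edgeR adjusted p = 0.000526). Irf7 was at 13.8, 13.2 and 12.4 against 26.3, 18.04 and 19.9 CPM (-0.70, SE 0.11, edgeR adjusted p = 0.00159). The groups did not overlap for any of these. Rsad2 went the other way, at 43.4, 40.8 and 51.7 against 35.1, 29.4 and 29.9 CPM (0.53, SE 0.09, edgeR adjusted p = 0.00259). These 4 were called under every alternative run, while Dhx58, Oas2, Samd9l and Usp18 (-0.42, SE 0.10) were not. Isg15 at 19.2 to 25.03 against 14.7 to 18.2 CPM (0.32, SE 0.14) and Mx1 at 0.581 to 1.54 against 0.958 to 0.976 (0.13, SE 0.26) were not called, nor were Ifit1, Stat2, Ifitm3 and Bst2. Ifit3 was at 0.869 to 1.10 against 1.70, 1.95 and 5.87 CPM, an estimate of -1.68 (SE 0.52) that was not called either. Without treated library 3 the count was 4, and without vehicle library 3 it was 5.

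Genes around the pathway in thio cells fell in part: 5 of 57 other interferon-stimulated genes fell, Epsti1 and Psmb9 first, and Gbp3 rose. Of 17 tested interferon gamma-preferring genes 3 fell, Fcgr1 the most clearly (-0.73, SE 0.08). The sensor genes Tlr3 (-0.70, SE 0.13) and Tlr8 (-0.60, SE 0.15) fell too. Of 12 heat shock genes, 10 rose in the same libraries. Summed macrophage markers were 28230 to 33400 CPM in treated and 34910 to 35390 in vehicle libraries. Plasmacytoid dendritic cell markers were 512 to 546 against 632 to 646 CPM, and neutrophil markers 51.6 to 58.7 against 61.8 to 65.3. All 3 sums were lower in treated libraries without overlap, and their part was not tested.

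In ascites macrophages 0 of 39 members were called beside 1.79% of all genes (1.69% higher). By unadjusted p 10 were under 0.05, beside 1804 of all 16955 genes. DESeq2 called 2, and the share of all genes it called is not given, here or for the difference of responses below. The median was -0.12 with 32 negative estimates. Irf7 was at 1135, 1041 and 1073 CPM in treated and 1089, 1087 and 1173 in vehicle libraries (-0.04, SE 0.09), and Rsad2 at 537, 498 and 496 against 540, 581 and 502 (-0.08, SE 0.09). Stat2 had the lowest adjusted p, at 169, 197 and 205 against 259, 232 and 233 CPM (-0.34, SE 0.09, edgeR adjusted p = 0.0665). The difference between the ascites and thio responses was called for 0 members beside 0.118% of all genes (0.0767% higher, 0.0413% lower), and for 4 by DESeq2. Its unadjusted p was under 0.05 for 14 members, beside 1295 of all 16955 genes. Rtp4 came nearest (0.60, SE 0.11, edgeR adjusted p = 0.0538). Without ascites treated library 3 the ascites response had 1 call, and the difference had 1 without ascites treated library 1 or thio treated library 3. Of 12 heat shock genes, 12 rose in the treated ascites libraries.

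**Figure D5:**
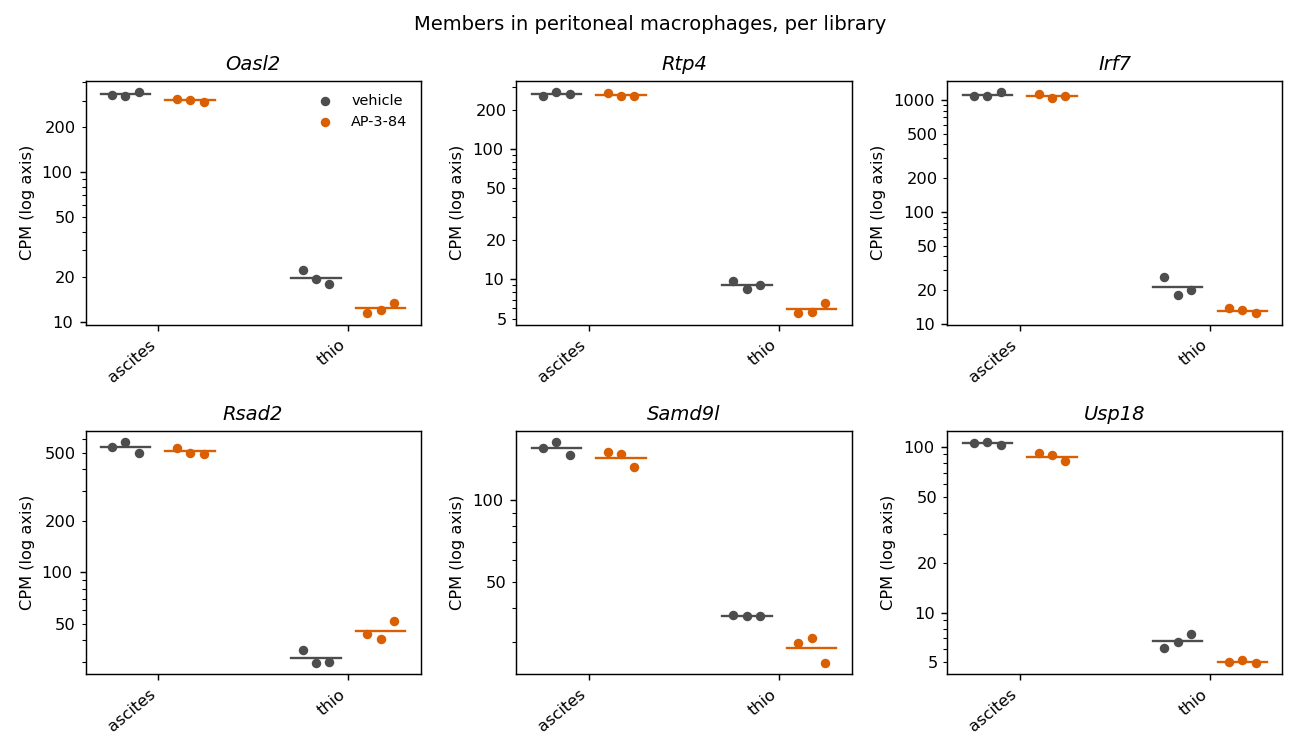
CPM on a log axis of 6 members in each ascites and thio library, 3 points per group with a line at the mean, vehicle in grey and AP-3-84 in orange. The ascites level is far above thio for each gene, and within thio the treated libraries are lower for 5 and higher for Rsad2, at 40.8 to 51.7 against 29.4 to 35.1 CPM.

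In M2 cells of both genotypes most estimates were negative, and their size moved with single libraries. In WT_M2 all 39 were negative with a median of -1.005, and 0 were called beside 1.21% of all genes. By unadjusted p 21 were under 0.05, beside 1386 of all 11779 genes. DESeq2 called 10, a run whose share of all genes is not given. Isg15 was at 7.72, 8.04 and 9.45 CPM in treated and 118, 40.7 and 9.82 in vehicle libraries (-2.74, SE 0.73, edgeR adjusted p = 0.0642). Rsad2 was at 26.9, 31.4 and 27.2 against 286, 56.4 and 18.1 CPM, so its groups overlapped. Usp18 was at 17.3, 20.9 and 29.7 against 67.9, 52.5 and 39.9 CPM (-1.24, SE 0.38, edgeR adjusted p = 0.125). In all, 12 members lay below vehicle without overlap, beside 8.78% of all genes. Dhx58 was one, at 6.79, 7.77 and 6.12 against 20.03, 20.2 and 17.1 CPM (-1.47, SE 0.40, edgeR adjusted p = 0.0653), and Dtx3l another, at 43.9 to 65.3 against 77.6 to 88.7. Vehicle library 1 was not the highest for either. It had the highest members' median, and without it the median was -0.46 with 0 calls. The count was 5 without vehicle library 3 and 2 without treated library 3. Vehicle library 1 also had 3954 CPM of summed neutrophil markers against 577 and 452 in the other vehicle libraries and 201 to 535 in treated ones. Its NF-kB and LPS-response median was 7.13 log2 CPM against 5.70 and 4.98, and 10 of 24 such genes fell with treatment. The part of these in the result was not tested.

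In KO_M2, 37 of 39 estimates were negative with a median of -1, and 0 were called beside 0.0509% of all genes (0.034% higher). By unadjusted p 22 were under 0.05, beside 1454 of all 11779 genes. DESeq2 called 1, a run whose share of all genes is not given. Irf7 was at 56.4, 4.35 and 9.88 CPM in treated and 25.7, 64.4 and 195 in vehicle libraries (-2.04, SE 0.695), and Isg15 at 62.8, 16.0 and 23.3 against 24.4, 73.9 and 237 (-1.73, SE 0.64). Treated and vehicle groups overlapped for all 39 members. Vehicle library 3 was the highest and treated library 1 was near vehicle library 2. Without vehicle library 3 the median was -0.33, and without treated library 1 it was -1.59 with 4 calls. Without vehicle library 1 there were 13 calls. Vehicle library 3 also had 3285 CPM of neutrophil markers against 343 and 624, and 6199 CPM of macrophage markers against 18730 and 9649, values whose part was not tested. The KO_M2 and WT_M2 responses differed for 0 members beside 1.77% of all genes (1.08% higher in KO_M2), for 0 by DESeq2, and for 1 without WT_M2 vehicle library 3. The unadjusted p was under 0.05 for 4 of 39 members, a lower rate than over all genes, 1815 of 11779.

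In M1 cells the main fit called 0 members. That fit took each gene's spread from all 36 bone marrow-derived libraries, among them the uneven M2 and treated KO_M0 ones, so smaller changes may be missed. In WT_M1 0 of 39 were called beside 0.017% of all genes, and DESeq2 called 0. By unadjusted p 0 were under 0.05, beside 857 of all 11779 genes. The median was -0.26, with 32 negative estimates. A fit of only the libraries compared called some members, as given below. Isg15 was at 200, 185 and 158 CPM in treated and 272, 261 and 246 in vehicle libraries (-0.52, SE 0.60), without overlap, and Irf7 at 804, 668 and 679 against 619, 657 and 687 (0.13, SE 0.62). In all, 16 members lay below vehicle without overlap, beside 8.73% of all genes. In KO_M1 0 of 39 were called beside 0% of all genes, and DESeq2 called 0. By unadjusted p 0 were under 0.05, beside 206 of all 11779 genes. Isg15 was at 329, 245 and 248 against 191, 269 and 213 CPM (0.29, SE 0.60), and Rsad2 at 784, 617 and 637 against 1029, 597 and 836 (-0.27, SE 0.75). The median was -0.15 and came to 0.002 without vehicle library 1. The difference between the M1 responses was called for 0 members beside 0.00849% of all genes, and for 0 by DESeq2. Its unadjusted p was under 0.05 for 0 members, beside 831 of all 11779 genes.

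Across the 36 bone marrow-derived libraries, members followed the median of the list to different degrees, with Pearson r from 0.976 for Ifi44 and 0.974 for Isg15 down to 0.726 for Ifit2, 0.664 for Usp18 and 0.64 for Ifi27l2a. Among the genes outside the list whose log2 CPM followed it most closely were Ifi211 (Pearson r = 0.985), Ifi209 (0.972), Sp100 (0.966) and Ifi206 (0.965). This is a description, since the libraries share groups and scaling. Members with and without an ISRE core in their window had similar values in the KO_M0 response, with medians of 1.43 over 15 and 1.60 over 13 genes, nor in ascites against thio, at 4.10 and 4.07. Some members share sequence with other genes, which bears on how their reads were split. Of the 30-base stretches of Oas1a transcripts 69.5% occur in other genes, chiefly Oas1g, of Phf11b 63.6%, of Ifit3 62.5%, of Ifit3b 55.9% and of Ifi204 35.1%. The libraries read the 3′ end, and shares in the last 500 bases of transcripts differed. There they were 70.7% for Oas1a, 56.5% for Phf11b, 45.6% for Ifi205, 29.3% for Ifitm3 and 26.1% for Herc6. Ifit3 had 25.1%, Trim30a 24%, Ifi204 16.3% and Ifit3b 9.61%. Irf9, Herc6, Rtp4 and Parp14 overlap another gene on the same strand.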

How the data were processed

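The 48 libraries were made from macrophage RNA with QuantSeq FWD, a kit that reads the 3′ end of each transcript, per the labels' protocols. The authors deposited a table of raw counts per gene ID; RSEM, Bowtie2 and DESeq2 are named without role or version in the submitters' processing notes, so the whole numbers may be rounded estimates. For the genome build, annotation and molecular identifiers the status is: not given in the sources used here. Of the gene IDs, 193 had no symbol.

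Members were matched by symbol, and all 39 were found. The members and all lists were chosen with earlier results of these data known. Counts of the 12 peritoneal and 36 bone marrow-derived libraries were fitted apart with edgeR 4.0.16 (R 4.3.3), its quasi-likelihood test, TMM scaling and filterByExpr, with no replicate block. This left 16955 and 11779 genes, and biological coefficients of variation of 0.1684 and 0.2249. A gene was called at a Benjamini-Hochberg adjusted two-sided p under 0.05 over all genes tested, in 20 comparisons: 8 responses to the compound, 4 differences of responses and 8 comparisons of vehicle groups. Responses share their vehicle libraries with the vehicle comparisons. Log2 CPM had a prior count of 2. Tests on simulated data recovered 92 of 100 genes at a log2 change of 1 in thio and 53 of 100 in WT_M0, and 100 and 96 of 100 at 2. False calls were 9 in thio and 6 in WT_M0. The changed genes lay above a low-count cut, and counts were drawn with the spread usual at each gene's level. Members that vary more than this would be recovered less often, so these rates do not give the power for the members. Replicates of a group differed by more than sampling noise, with chi-square per gene of 2.571 to 42.568.

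Values per library are given for Isg15, Ifit1, Ifit3, Rsad2, Irf7, Usp18, Mx1, Stat2, Ifitm3, Bst2 and the 3 called members of lowest p in a comparison, and any member may be named. Of the pathway lists, at most 5 called genes of lowest p per comparison are named, besides Ifnb1, Ifnar1, Ifnar2, Jak1, Tyk2 and Irf1, and up to 10 genes most like the members. A gene this rule names is not reported here. Alternatives were DESeq2 1.42.0, other scalings, no low-count filter, only the groups compared, a replicate block and leaving out each library.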

Additional observations from a re-analysis of the deposited data

Results flagged for a closer look

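The response to AP-3-84 differed between KO_M0 and WT_M0 for 23 of the 39 members, by a test of the difference itself with edgeR's quasi-likelihood test. All 23 were higher in KO_M0, beside 1179 of all 11779 genes that were higher and 823 that were lower. Leaving out each library in turn gave 13 to 27 members.

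For each treated library, the difference of every member from its own mean over the vehicle libraries was taken in log2 CPM. The median of these differences was above 0 in all 3 libraries of KO_M0, at 1.775, 1.842 and 0.644, and below 0 in all 3 libraries of 7 other populations. It was near 0 in some of these, at -0.004 in KO_M2 treated library 1 and -0.018 in KO_M1 treated library 1. Vehicle libraries spread around their own mean too. In ascites, WT_M2, KO_M1 and KO_M2 the lowest vehicle library, at -0.054, -0.738, -0.164 and -0.988, lay below a treated library. In WT_M0, WT_M1 and thio it did not, at -0.189, -0.05 and -0.07. By the median level instead, KO_M2 treated library 1, at 5.73 log2 CPM, lay above its vehicle mean of 5.65. Of these contrasts with KO_M0, that with WT_M0 was tested as above, and the others were not tested.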

How the results depend on the processing

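Over 20 counts of called members, 206 of 276 alternatives stayed within 1.5 times the main count and 70 did not; of 2351 alternatives for 180 single-gene results, 341 lost the call and 0 changed sign. All 39 members stayed called in ascites against thio under each alternative run. The share of all genes called in an alternative run is not given, here or above. A change in these counts therefore cannot be told from a change over all genes. With no filter on low counts the number called was 4 in ascites, 15 in thio, 6 in WT_M0, 25 in WT_M2 and 22 in KO_M2 for the compound, 6 for ascites minus thio, 1 for KO_M1 minus WT_M1 and 3 for KO_M2 minus WT_M2, and 12, 9 and 25 for KO against WT in M0, M1 and M2 and 11 for WT_M2 against WT_M0; the cause was not tested. With DESeq2 it was 2 in ascites, 10 in WT_M2 and 1 in KO_M2, 4 for ascites minus thio and 4 for KO_M2 against WT_M2. With only the libraries compared it was 1 in ascites, 2 in WT_M0, 3 in WT_M1 and 1 in WT_M2, 12, 7 and 0 for KO against WT in M0, M1 and M2, and 5 for KO_M2 against KO_M0. Median-ratio size factors gave 1 in ascites and 1 in WT_M2. Scaling by total counts gave 3 in ascites, 2 for ascites minus thio, 4 for KO_M2 against WT_M2 and 6 for WT_M2 against WT_M0. It also moved the members' median difference to 4.17 in ascites against thio, 0.379 in KO_M1 against WT_M1 and 1.42 in WT_M1 against WT_M0, and their level to 6.57 in WT_M1 vehicle, 6.39 in WT_M1 treated and 6.91 in KO_M1 treated libraries.

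Leaving out each library in turn gave 0 to 1 calls in ascites, 4 to 8 in thio, 0 to 0 in WT_M0, WT_M1 and KO_M1, 0 to 5 in WT_M2, 11 to 30 in KO_M0 and 0 to 13 in KO_M2 for the compound. It gave 0 to 1 for ascites minus thio, 13 to 27 for KO_M0 minus WT_M0, 0 to 1 for KO_M2 minus WT_M2, 0 to 3, 1 to 1 and 1 to 11 for KO against WT in M0, M1 and M2, 15 to 23 and 26 to 32 for M1 against M0 in WT and KO, and 2 to 11 and 6 to 21 for M2 against M0. The members' median, an alternative chosen after seeing the data, ran from -0.174 to -0.065 in ascites, -0.27 to -0.141 in thio, -0.584 to -0.406 in WT_M0, -0.293 to -0.199 in WT_M1, -1.247 to -0.457 in WT_M2, 1.291 to 1.714 in KO_M0, -0.24 to 0.002 in KO_M1, -1.59 to -0.334 in KO_M2 and 0.29 to 1.736 in KO_M2 against WT_M2. The sign in KO_M1 turned without vehicle library 1; the cause was not tested.

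Same-numbered vehicle and treated libraries did not deviate together throughout, with correlations from -0.498 to 0.509. In KO_M1 and WT_M2, 2 of 3 libraries correlated best with their own number, at 0.425 and 0.509 for KO_M1 libraries 1 and 2. In no population did every library do so, and the numbers were not taken as pairs. With a replicate block within population, 15 members were called in KO_M0 and 15 for KO_M0 minus WT_M0, and with a replicate block 0 for KO_M0 against WT_M0.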
